A study of Macaca mulatta with 9 samples.

Results

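The extracellular matrix genes of the rhesus monkey ovary were examined in young, middle-aged and old animals. The genes were chosen by symbol in the array annotation: the collagen chains (COL followed by a number, A and a number), the alpha, beta and gamma laminin chains, the fibrillins, the fibulins, the lysyl oxidases without LOXHD1, and ELN, FN1, DCN, LUM, BGN, NID1, NID2 and HSPG2. The annotation named 60 of these genes among its 14132 named genes, of which 35 were collagen chains and 9 were laminin chains. These 60 genes had 117 probe sets in all, 37 of them had more than 1, and each gene was represented by its brightest probe set. COL4A1, COL4A2, COL5A1, COL8A1, COL17A1, LAMA5, FBLN2, LOXL4 and NID2 were among the matrix genes not analysed here.

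Ovarian RNA of 9 monkeys was hybridized to 9 one-colour Affymetrix arrays, with 1 monkey on each array and 3 arrays in each age group. The young group was 3 to 4 years of age, of cycling animals with no history of breeding. The middle-aged monkeys were 7 to 8 years old and of good reproductive capacity, and both of these groups were sampled at about proestrus. The old monkeys were 18 to 19 years old and had lost their reproductive capacity. No allele or drug treatment is given for any group, and all animals were perfused with a buffer before the ovary was taken. The RNA came from a cut portion of 1 ovary of each animal, which holds follicles, stroma and vessels in proportions not measured there. In another part of the same ovaries, the study counted fewer follicles in middle-aged than in young animals and very few in old ones. It saw no antral follicles in the old ovaries. In such bulk tissue, fewer cells of a type and less RNA per cell cannot be told apart.

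The extracellular matrix is the protein scaffold that surrounds cells. Fibrillar collagens such as types I, III and V are spun into rope-like fibrils that give tissue its tensile strength, and lysyl oxidases secreted by the same stromal cells cross-link the fibrils and the elastic fibres. Basement membranes are thin sheets made of type IV collagen and laminin networks, held together by nidogen and perlecan, and in the ovary such a sheet encloses each follicle and separates granulosa cells from the theca. The cortex of the ovary is rich in collagen, and in mice its fibrillar collagen and stiffness are known to increase with reproductive age.

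Values are robust multi-array average (RMA) intensities on a linear scale, 1 for each probe set. They can be compared between arrays for the same probe set but not between genes, since probe sets differ in brightness. Over 52766 probe sets the array medians lay between 24.2 and 25.8 and the first quartiles between 9.001 and 9.57, and 52 of the 60 matrix genes lay above the median probe set. The log2 values of all probe sets were fitted together in limma. Being called required a fold of 1.5 or more together with an adjusted p (Benjamini-Hochberg) under 0.05. With 3 arrays against 3, an exact permutation test cannot give a p below 0.1, and the number of arrays limits the precision of every value.

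Defining markers of ovarian cell types were measured, without detection calls. Of 10 oocyte markers 7 had a probe set, of 9 granulosa cell markers 7, of 6 markers of steroid-making cells 3, of 8 stromal fibroblast markers 7, of 10 smooth muscle markers 6 and of 10 endothelial markers 9, and none of these lay below the first quartile of intensity in all group means. ZP3, an egg coat glycoprotein, was lower in old than in young ovaries by a log2 difference of -4.85 ± 0.63 (SE; adjusted p = 0.0394, limma). The arrays numbered 3 stood apart in each group in a measure of RNA quality: the log2 ratio of 3′ to 5′ GAPDH control probe sets was 2.22 in young 3, 2.25 in middle-aged 3 and 2.36 in old 3, against 1.64 to 2.11 on the other 6 arrays. Bacterial RNAs added before labelling read 0.67 log2 units above the mean array in young 3 and 0.78 in old 3, but not in middle-aged 3 (-0.24). Array numbers do not link animals across groups.

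None of the 60 matrix genes was called in any of the 3 comparisons. Between old and young ovaries, limma called 0.155% of all probe sets, and 7 of the 60 genes (11.7%) had an unadjusted p under 0.05, where 18.8% of named genes did. Between old and middle-aged ovaries 0.0341% of probe sets were called and 11 matrix genes (18.3%) had an unadjusted p under 0.05, against 11.3% of named genes. Between middle-aged and young ovaries 0.0019% were called and 9 matrix genes (15%) had one, against 3.34%. The significance analysis of microarrays (SAM), a permutation method, called COL4A4 as lower in old than in young ovaries (q = 0.0469) and no other matrix gene in any comparison. The 3 comparisons share arrays, so their values are given side by side and not as independent results.

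What stood out among the matrix genes was the middle-aged group. Its mean was the highest of the 3 groups for 34 of the 60 genes, or 56.7%, whereas it was the highest for 23% of all named genes. The young mean was the highest for 12 matrix genes and the old mean for 14. Among the 52 brighter genes the middle-aged mean was the highest for 29. The count of 34 lay between 30 and 36 with centring, quantile normalization or arrays left out, with the lowest value when old 1 was left out. It was not recounted with array weights or averaged probe sets. The median log2 difference over the 60 genes was 0.14 between middle-aged and young ovaries, -0.24 between old and middle-aged ovaries and 0.05 between old and young ovaries. The same medians over all probe sets were -0.01, 0.02 and 0.01. The median of -0.24 rested in part on single arrays, since it was -0.081 without old 1 and -0.13 without middle-aged 3, and the median of 0.14 was 0.074 without young 3 and 0.22 without middle-aged 3. Matrix genes were higher in the middle-aged than in the young mean in 42 cases of 60, and the old mean was below the middle-aged mean in 42 cases of 60. The members were chosen with earlier results known, so these shares are descriptions without a test.

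**Figure D1:**
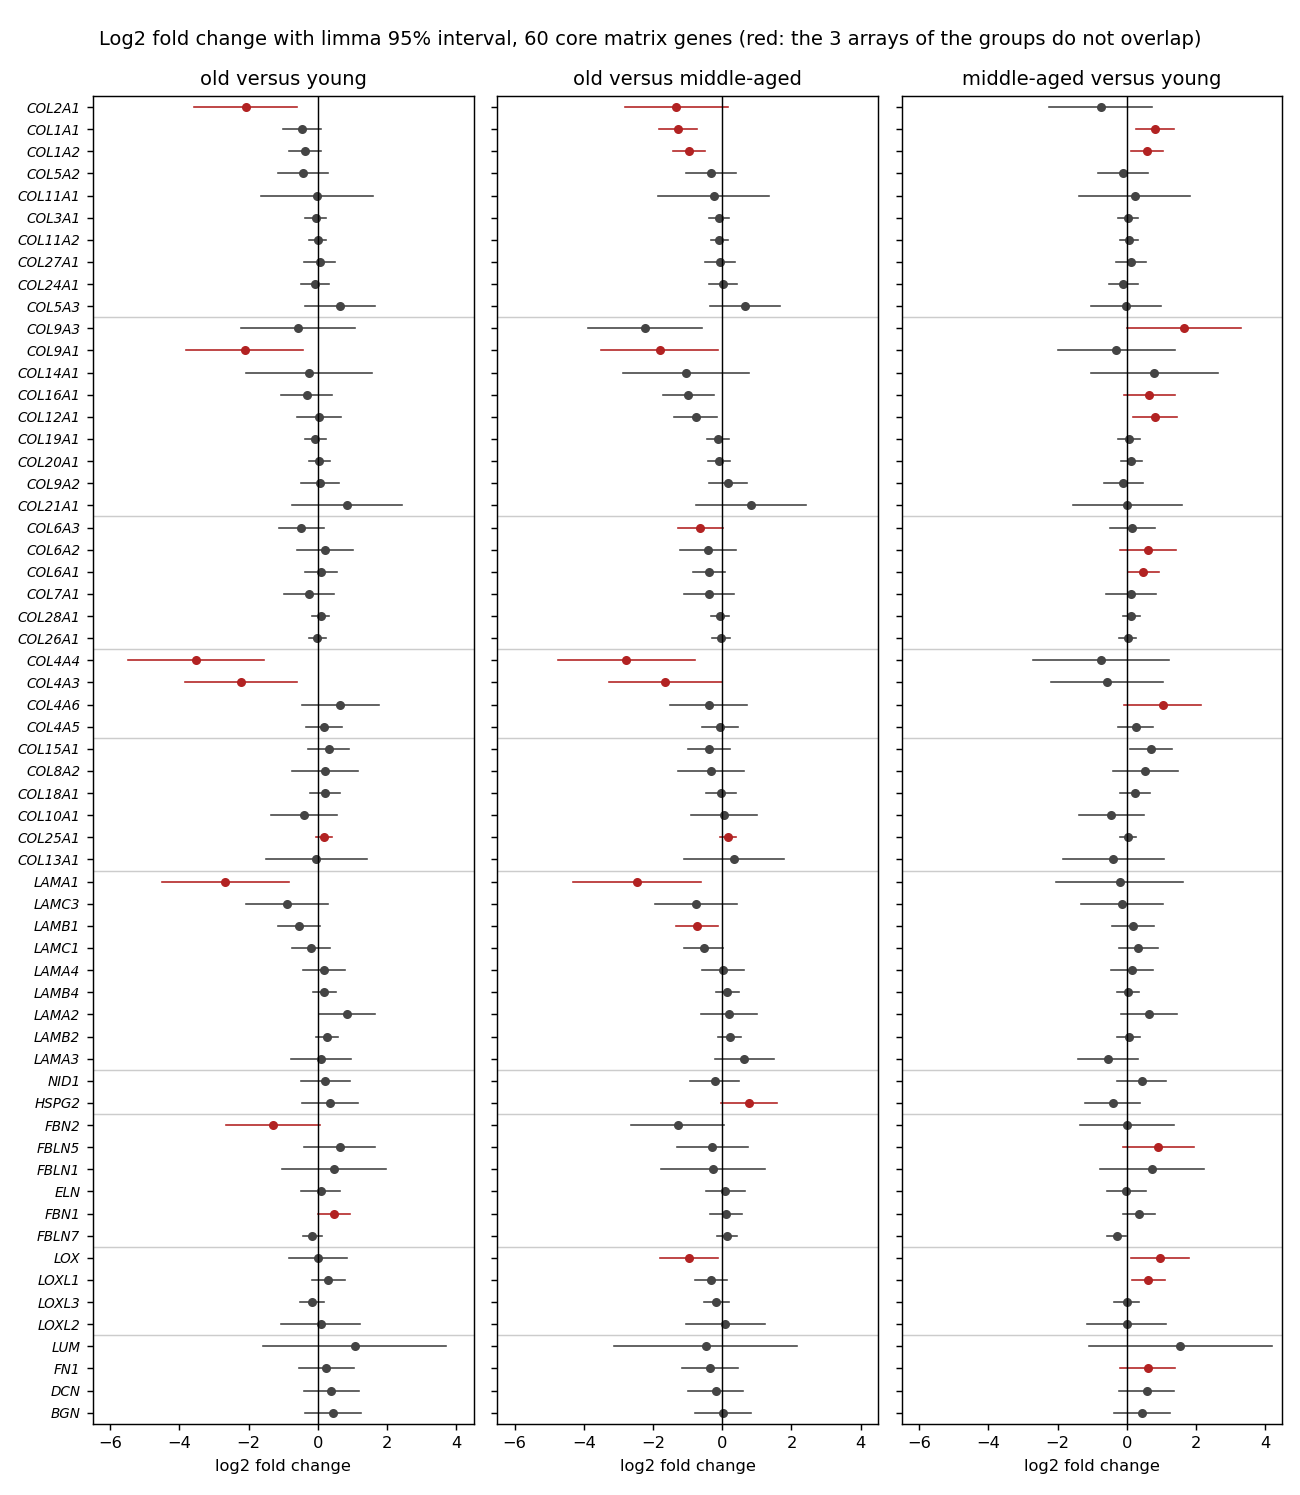
Log2 fold change of each of the 60 matrix genes (points) with its limma 95% interval (lines) for old versus young, old versus middle-aged and middle-aged versus young ovaries, grouped by role with grey dividers; red marks genes whose 3 arrays in one group lie wholly above or below those of the other. Most points of the middle panel lie left of 0 (42 of 60) and most points of the right panel lie right of 0 (42 of 60), while old versus young is divided into 33 above and 27 below.

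Without regard to p, 12 of 60 genes (20%) had all 3 middle-aged arrays above all 3 young arrays, where 4.87% of named genes did, and none had them below, where 4.53% did. In old against middle-aged ovaries, 10 genes (16.7%) had all old arrays below, against 9.22% of named genes, and 2 had them above (COL25A1 and HSPG2, 3.33%, against 5.57%). In old against young ovaries, 6 genes (10%) lay below, against 13.8% of named genes, and 2 (COL25A1 and FBN1, 3.33%) lay above, against 7.8%, so old against young held no more such genes than the array as a whole. By the unadjusted p, 8 genes (13.3%) were higher in middle-aged than in young ovaries, where 1.43% of named genes were, and 1 (FBLN7) was lower, where 1.91% were. In old against middle-aged ovaries 11 genes (18.3%) were lower against 7.61% of named genes, and none was higher against 3.67%. In old against young ovaries 5 genes (8.33%) were lower against 12%, and 2 (FBN1 and LAMA2, 3.33%) were higher against 6.8%. These counts depended on single arrays. The 8 genes became 3 without young 3, where 1.61% of named genes were higher, and 4 without middle-aged 2 or without middle-aged 3, where 1.02% and 1.00% were. The 11 genes became 4 without middle-aged 2, where 5.36% of named genes were lower, and 15 without middle-aged 3, where 7.27% were.

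Type I collagen, the main fibril of connective tissue, had its highest values in the middle-aged group. COL1A1 (NCBI gene 574201), its alpha 1 chain, read 468, 546 and 349.8 in the young ovaries, 752, 846 and 772 in the middle-aged ovaries, and 381, 401 and 227 in the old ovaries. All 3 middle-aged arrays lay above all 6 others, whereas young and old arrays overlapped. The difference between old and middle-aged ovaries was -1.28 ± 0.24 on the log2 scale (SE; 95% interval -1.83 to -0.73; adjusted p = 0.259, limma), and that between middle-aged and young ovaries was 0.82 ± 0.24 (0.27 to 1.37; adjusted p = 1.00, limma). COL1A2 (gene 700359), the alpha 2 chain of the same molecule, read 7980.4, 7126 and 5737 in young, 9646, 10682 and 10541 in middle-aged, and 5328, 6899.9 and 4032 in old ovaries. Its old arrays all lay below the middle-aged arrays, with a log2 difference of -0.96 ± 0.20 (-1.42 to -0.49; adjusted p = 0.319, limma), and its middle-aged arrays all lay above the young ones. A second COL1A2 probe set, with 4678, 5056 and 4234 in young, 5395, 7007 and 5878 in middle-aged, and 4606, 3633 and 2723 in old ovaries, ranked the groups the same way, at -0.76 for old against middle-aged and 0.38 for middle-aged against young ovaries. The second COL1A1 probe set read between 8.22 and 11.6 on all arrays, near the first quartile of intensity, and showed differences of at most 0.08 in size between groups. When each array was left out in turn, the difference between old and middle-aged ovaries lay between -1.43 and -1.01 for COL1A1 and between -1.15 and -0.76 for COL1A2, and without the arrays numbered 3 it was -1.03 and -0.74. Between old and young ovaries the differences were -0.46 for COL1A1 (95% interval -1.01 to 0.09) and -0.38 for COL1A2 (-0.84 to 0.09), and both intervals held 0. Cell type markers also separated the younger groups. The summed intensity of 6 smooth muscle markers ranged from 4567 to 5542 in young, 7209 to 14606 in middle-aged and 4364 to 20592 in old ovaries. That of 9 endothelial markers ranged from 1327 to 1763, 1933 to 3740 and 1751 to 7242 in the same order of groups. For 10 surface epithelium markers it ranged from 5801 to 7463, 1925 to 3182 and 1899 to 4559. The 7 stromal fibroblast markers were taken as a median of log2 intensity minus the gene mean. That median ranged from -0.49 to -0.30 in young, -0.09 to 1.05 in middle-aged and -0.70 to 0.85 in old ovaries. The part of tissue makeup in the type I collagen values was not tested.

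LOX (gene 699997), the lysyl oxidase that starts collagen cross-links, followed the same order of groups. It read 296, 280.1 and 126 in young, 652, 303 and 392 in middle-aged, and 222, 215 and 219 in old ovaries. Every middle-aged array lay above every other, although middle-aged 2 stood only just above young 1 and the old arrays were nearly alike. Its log2 difference was 0.96 ± 0.36 from young to middle-aged and -0.96 ± 0.36 from middle-aged to old ovaries (SE; adjusted p = 1.00 and 0.589, limma), while old and young means differed by 0.00 (95% interval -0.83 to 0.84). LOX had 3 probe sets, and over 21 alternative settings its difference lay between 0.51 and 1.21 for middle-aged against young ovaries. For old against middle-aged ovaries it lay between -1.21 and -0.49. COL1A1, COL1A2 and LOX were the only matrix genes in which all 3 middle-aged arrays lay above both other groups (5%, against 0.524% of named genes), and none had all 3 below (against 0.644%). LOXL1, which cross-links elastin, read 349.8, 304 and 339 in young, 429.9, 619 and 501 in middle-aged, and 382, 543 and 330.1 in old ovaries. The middle-aged and young arrays of LOXL1 did not overlap, at a log2 difference of 0.63 ± 0.20 (adjusted p = 1.00, limma), but old 2 lay among the middle-aged arrays. LOXL2 read 178 in old 1 and 41.0 to 90.2 elsewhere, and LOXL3 lay between 90.0 and 129.5 on all arrays.

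**Figure D2:**
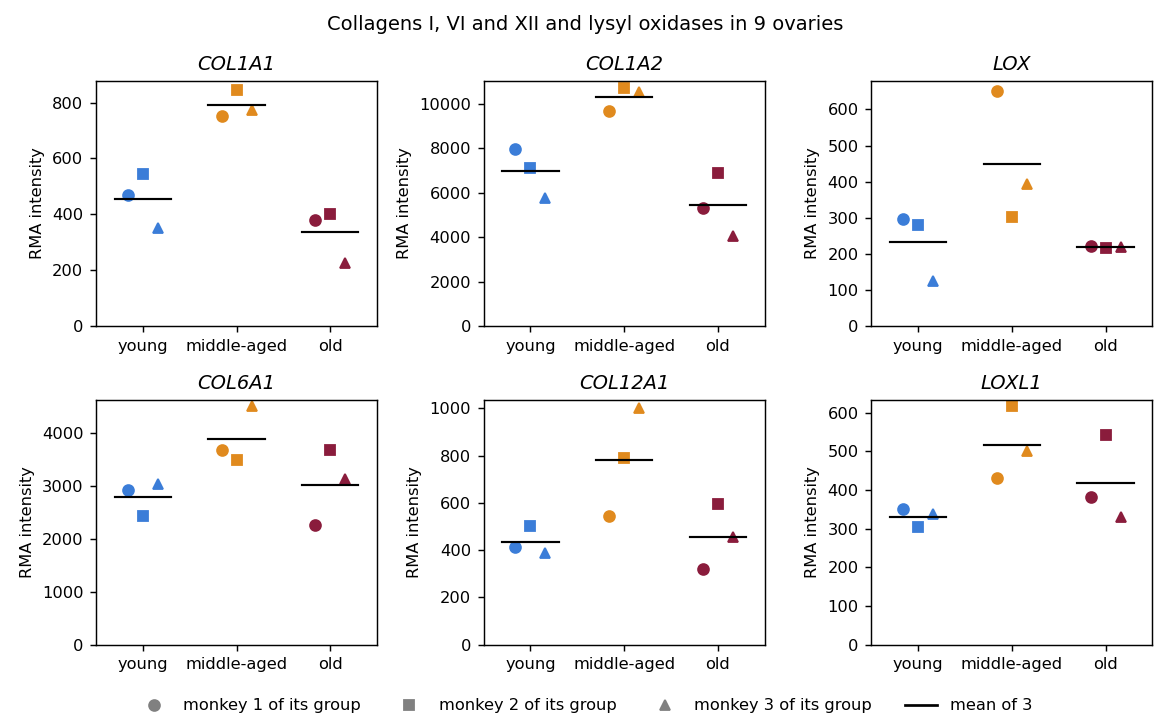
RMA intensity (linear axes from 0) of COL1A1, COL1A2, LOX, COL6A1, COL12A1 and LOXL1 in each of the 9 ovaries by age group, with a marker for each monkey and a line at the mean of 3. For COL1A1, COL1A2 and LOX all 3 middle-aged points lie above all young and old points, and for COL6A1, COL12A1 and LOXL1 they lie above the young points while the old points overlap them.

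The middle-aged mean was the highest for 6 of the 10 fibrillar collagens, COL1A1, COL1A2, COL3A1, COL11A1, COL11A2 and COL27A1, but the arrays of the last 4 overlapped between all groups. COL3A1, the chain of type III collagen, was represented by a single probe set that read between 68.1 and 90.6 on all 9 arrays, with log2 differences of -0.06, -0.09 and 0.03 in the 3 comparisons. Type III collagen is abundant in ovarian stroma, and no second probe set was at hand to check this one. COL5A2, a chain of the type V collagen that nucleates type I fibrils, read 1932, 1834 and 1205 in young, 1956, 1861 and 946 in middle-aged, and 1438, 1276 and 958 in old ovaries, and its array numbered 3 was the lowest of each group. Its 4 probe sets disagreed in sign between old and young ovaries (-0.43, -0.43, 0.59 and 0.26), so no direction is given. COL5A3 read 283 in old 1 and 62.2 to 115 elsewhere. COL11A1 read 23.1 to 129.8 with no order by age, COL11A2 lay between 46.7 and 59.4, and COL24A1 and COL27A1 were below the median probe set.

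Type VI collagen forms beaded filaments around cells. COL6A1 read 2918, 2424 and 3041 in young, 3674, 3493 and 4523 in middle-aged, and 2259.8, 3682 and 3137 in old ovaries. All middle-aged arrays of COL6A1 lay above the young ones, at a log2 difference of 0.48 ± 0.20 (95% interval 0.03 to 0.93; adjusted p = 1.00, limma). COL6A2, its neighbour in the RefSeq annotation, read 294, 283 and 356, then 356, 385 and 787, then 236, 507 and 386 in the same order of groups. Middle-aged 3 was the outlying array for COL6A2, and the lowest middle-aged array lay just above the highest young one. COL6A3, the longest chain, read 3213, 4156 and 3548 in young, 4689, 3759.9 and 3755 in middle-aged, and 1569, 3409 and 3309.5 in old ovaries. The old COL6A3 arrays all lay below the middle-aged ones (-0.63 ± 0.29, adjusted p = 0.643, limma), with old 1 far below the other old arrays. COL7A1, the anchoring fibril collagen of epithelia, read 53.0 to 133, and COL26A1 and COL28A1 differed between groups by no more than 0.14 in size on the log2 scale.

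Among the collagens that decorate fibrils, COL12A1 read 412, 502 and 389.7 in young, 545, 792 and 1004 in middle-aged, and 320.5, 595 and 456 in old ovaries. The middle-aged arrays of COL12A1 lay above the young arrays (0.81 ± 0.28, adjusted p = 1.00, limma), and 2 of the 3 old arrays lay below all of them. COL16A1 read 557, 503 and 442 in young, 635, 1064 and 716 in middle-aged, and 261, 639.5 and 377 in old ovaries, again with old 2 within the middle-aged range. Its difference between old and middle-aged ovaries was -0.98 ± 0.32 (95% interval -1.72 to -0.25; adjusted p = 0.53, limma). COL15A1, a basement membrane zone collagen of vessels, read 1164, 900.1 and 862 in young, 1059, 1862 and 1978 in middle-aged, and 1502, 1020.2 and 1135 in old ovaries, and middle-aged 1 lay below young 1. Its second probe set had the opposite sign in both comparisons with the middle-aged group. Old against middle-aged was -0.39 by the brightest probe set and 0.07 with the probe sets averaged, so no direction is given. COL21A1 was highest in old 1 (307) and old 3 (243) but read 50.1 in old 2, against 47.9 to 175 in the other groups. COL18A1, the source of endostatin, stayed between 254 and 467, and COL13A1 between 32.3 and 172.

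COL9A3, a chain of type IX collagen, differed most among the fibril-associated collagens in middle-aged against young ovaries and in old against middle-aged ovaries. It read 79.2, 94.0 and 94.9 in young, 306, 574 and 128 in middle-aged, and 37.6, 185 and 31.2 in old ovaries. All middle-aged arrays were above all young arrays, at a log2 difference of 1.66 ± 0.72 (95% interval 0.02 to 3.31; adjusted p = 1.00, limma), and old 2 overlapped the middle-aged range. The difference between old and middle-aged ovaries was -2.23 ± 0.72 (-3.87 to -0.59; adjusted p = 0.52, limma). COL9A2, which joins COL9A1 and COL9A3 in 1 molecule, read between 43.5 and 84.1 without an order by age.

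A second set of genes was lowest in the old ovaries. COL2A1, COL4A3, COL4A4, COL9A1 and LAMA1 had all 3 old arrays below all 6 others (5 of 60, 8.33%, against 6.98% of named genes), and COL25A1 had them above (1.67%, against 2.77%). These shares lie near those of the array as a whole and are no result about matrix genes as a class. The differences of these 5 genes between old and young ovaries were the largest in size among the 60.

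COL4A3 and COL4A4 encode chains of the specialized type IV collagen network that also holds COL4A5, and the genes lie next to each other in the RefSeq annotation (assembly T2T-MMU8v2.0). COL4A4 (gene 708287) read 432, 466 and 92.2 in young, 524, 139.6 and 54.1 in middle-aged, and 17.0, 31.8 and 22.8 in old ovaries. All old arrays lay below every other array, and within the younger groups the array numbered 3 was the lowest. The log2 difference was -3.52 ± 0.86 between old and young ovaries (95% interval -5.49 to -1.54; adjusted p = 0.157, limma) and -2.77 ± 0.86 between old and middle-aged ovaries (adjusted p = 0.505, limma). Its second probe set gave -3.32 and -2.39, and without the arrays numbered 3 the brightest gave -4.27 and -3.54. COL4A3 (gene 712444) read 109, 51.1 and 21.4 in young, 92.2, 25.2 and 15.7 in middle-aged, and 10.5, 10.2 and 11.2 in old ovaries, where the old arrays were nearly equal and close to the first quartile of intensity. Its log2 difference between old and young ovaries was -2.21 ± 0.71 (-3.84 to -0.59; adjusted p = 0.243, limma), and its second probe set gave -2.54. COL4A5, their partner chain, did not follow: it read 592, 466 and 554 in young, 539, 733 and 658 in middle-aged, and 439, 809 and 623 in old ovaries, with an old against young difference of 0.18 (95% interval -0.34 to 0.70). COL4A6 read 226, 131 and 224 in young, 357, 358 and 448 in middle-aged, and 126, 546 and 371 in old ovaries, and all middle-aged arrays lay above the young ones. Its 2 probe sets had opposite signs between old and young ovaries, so no direction is given for that comparison.

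LAMA1 (gene 722472), the alpha chain of laminin 111, read 232, 443 and 91.1 in young, 261, 283 and 82.4 in middle-aged, and 56.3, 55.8 and 11.6 in old ovaries. All old arrays were below the others, old 3 was the lowest, and young 3 and middle-aged 3 were the lowest of their groups. The log2 difference was -2.67 ± 0.80 between old and young ovaries (95% interval -4.51 to -0.83; adjusted p = 0.221, limma) and -2.46 ± 0.80 between old and middle-aged ovaries (adjusted p = 0.53, limma). A second, dim probe set of LAMA1 read 8.53 to 13.1 and did not show this difference (-0.19 for old against young). Without the arrays numbered 3 the brightest LAMA1 probe set gave -2.52 and -2.28. With the replicate number as a block LAMA1 was called in both comparisons (adjusted p = 0.0142 and 0.0352, limma), although the numbers do not pair the monkeys. COL9A1 (gene 714809) read 138, 349 and 47.1 in young, 166, 165 and 43.7 in middle-aged, and 34.7, 24.5 and 32.8 in old ovaries, at -2.11 ± 0.74 between old and young ovaries (adjusted p = 0.278, limma). COL9A1 had 2 probe sets, and its difference lay between -2.91 and -1.11 over 21 alternative settings. COL2A1 (gene 704851), known as the fibrillar collagen of cartilage, read 248, 119.5 and 60.2 in young, 46.7, 159.8 and 49.99 in middle-aged, and 41.3, 36.2 and 15.5 in old ovaries. The COL2A1 difference between old and young ovaries was -2.09 ± 0.65 (95% interval -3.58 to -0.60; adjusted p = 0.232, limma), and its second probe set gave -0.55. FBN2, the fibrillin of developing elastic fibres, read 30.6, 72.5 and 39.5 in young, 33.3, 116 and 22.8 in middle-aged, and 26.1, 13.5 and 17.0 in old ovaries, at -1.29 ± 0.59 (adjusted p = 0.391, limma) with old arrays below the young arrays only. FBN2 also had 2 probe sets, and over the 21 settings its old against young difference lay between -1.61 and -0.52.

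**Figure D3:**
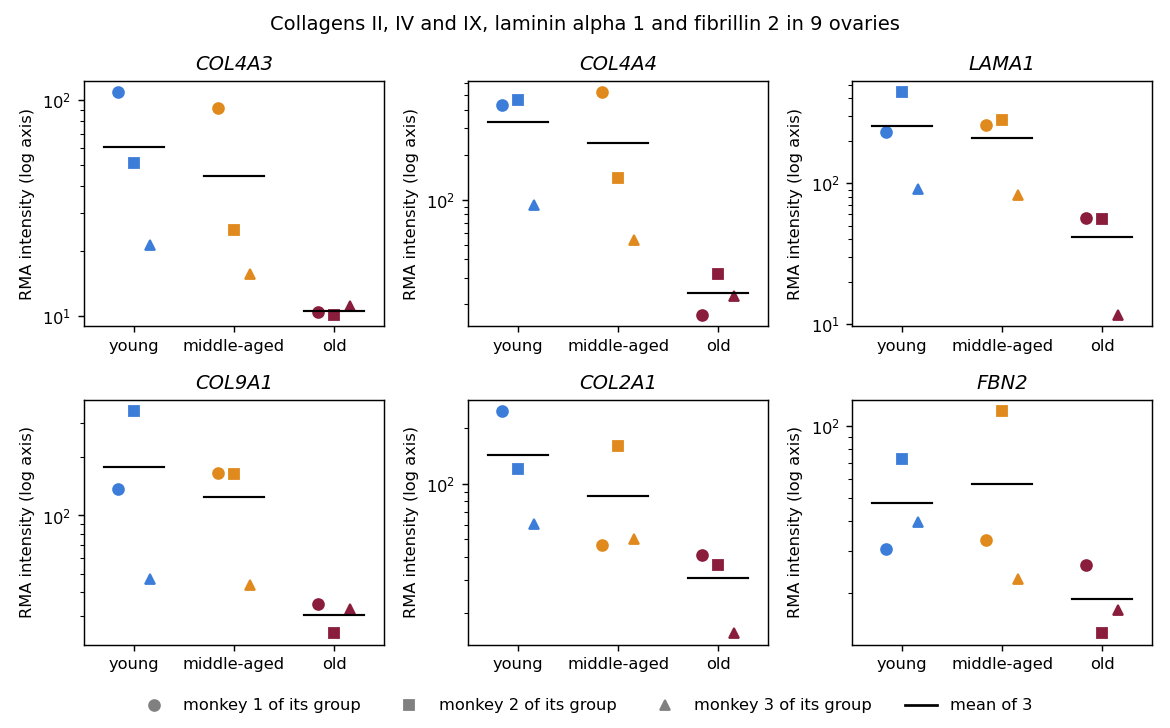
RMA intensity on log axes of COL4A3, COL4A4, LAMA1, COL9A1, COL2A1 and FBN2 in the 9 ovaries by age group, with a marker for each monkey and a line at the mean of 3. Except for FBN2, where old 1 lies above middle-aged 3, all 3 old points lie below every young and middle-aged point, and the triangles of monkey 3 are the lowest of the young and middle-aged groups in COL4A3, COL4A4, LAMA1 and COL9A1.

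Markers of follicle cells varied over the same arrays, in more than 1 pattern. Of the 7 measured granulosa cell markers, 4 had a lower and 3 a higher mean in old than in young ovaries, and 5 were lowest on the array numbered 3 in each younger group. AMH, a hormone of granulosa cells in growing follicles, read 625, 3292 and 412 in young, 1218, 952 and 123 in middle-aged, and 56.4, 72.3 and 65.0 in old ovaries. HSD17B1, a granulosa cell enzyme of oestradiol synthesis, read 1372, 3972 and 322, then 2434, 504 and 132, then 127, 144 and 133. These genes were low in old ovaries, as were AMHR2 and INHBB on their means. The opposite held for INHA, the inhibin alpha subunit, at a log2 difference of 2.67 between old and young ovaries, and for INHBA at 1.89. CYP19A1, aromatase, also had a higher old mean, at 0.99 ± 1.17 (SE), but this rested on old 1. CYP19A1 read 97.8, 128 and 42.2 in young and 1389, 60.9 and 48.8 in old ovaries, so old 2 and old 3 lay within the young range. Of the 7 oocyte markers 6 had a lower mean in old than in young ovaries and ZP4 a higher one (0.83). ZP4 had 3 probe sets, and only its brightest is given here. The study lists ZP4 among its changed genes without the mark of genes higher in old ovaries. No oocyte marker was lowest on young 3 alone, though BMP15 tied there with young 2. ZP3 was highest on the arrays numbered 3, at 2835 of the young and 1379 of the middle-aged arrays, unlike the matrix genes above. The summed intensity of the 7 measured oocyte markers ranged from 1214 to 4262 in young, 803 to 2461 in middle-aged and 362 to 522 in old ovaries. That of the 7 granulosa cell markers ranged from 1376 to 8311, 961 to 4887 and 1332 to 10530.5, so the whole granulosa list was not lowest in old ovaries. For the 3 measured markers of steroid-making cells the sum ranged from 982 to 3861, 984 to 5102 and 5913 to 24103. All 3 had a higher mean in old than in young ovaries, and only STAR (3.15) had all old arrays above the young ones. No defining marker of these lists was at 0. The part of follicle number in the values of COL4A3, COL4A4, LAMA1, COL9A1 and COL2A1 was not tested.

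The remaining laminins and their linkers had differences in both directions. LAMB1 and LAMC1, the beta and gamma chains found in most laminins, had middle-aged means above the old ones. LAMB1 read 787, 832 and 598 in young, 653, 1100.1 and 799 in middle-aged, and 569, 358 and 629 in old ovaries, at -0.72 ± 0.27 for old against middle-aged (95% interval -1.33 to -0.12; adjusted p = 0.581, limma), and its second probe set gave -0.88. LAMC1 read 1537, 1743 and 1027 in young, 1973, 2099 and 1333 in middle-aged, and 1210.2, 1059 and 1402 in old ovaries, where old 3 lay above middle-aged 3. LAMA2, the alpha chain of muscle and stromal laminin, read 398, 276 and 162 in young, 374, 488 and 373 in middle-aged, and 679, 465 and 331 in old ovaries. The LAMA2 difference between old and young ovaries was 0.85 ± 0.35 (95% interval 0.04 to 1.66; adjusted p = 0.349, limma), old 3 lay below young 1, and the second bright probe set gave 0.54. LAMA4, of vessel walls, read between 526 and 1003 and LAMB2 between 338 and 488, with old against young differences of 0.17 and 0.26. LAMC3 read 198, 202 and 108 in young, 189, 221 and 77.6 in middle-aged, and 161, 84.3 and 49.9 in old ovaries. LAMA3 read 55.5 to 197 and was highest on the array numbered 3 of each group.

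HSPG2, the heparan sulphate proteoglycan perlecan, read 520.0, 1146 and 503 in young, 672, 563 and 338 in middle-aged, and 806, 947 and 829.7 in old ovaries. All old arrays were above the middle-aged arrays (0.77 ± 0.35; 95% interval -0.03 to 1.57; adjusted p = 0.649, limma), but young 2 was the highest of all. NID1, the nidogen that bridges laminin and collagen IV, read 474, 439 and 256 in young, 598, 571 and 383 in middle-aged, and 584, 313 and 454 in old ovaries, and the groups overlapped throughout.

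LUM, DCN, FBLN1 and COL14A1, genes of the stroma, varied more between the monkeys of the middle-aged or old group than between group means. LUM (gene 709830), lumican, which regulates fibril thickness, read 291, 879.5 and 1518 in young, 868, 2079 and 5426 in middle-aged, and 275, 2203 and 5971 in old ovaries, a 21.7-fold range over the 9 arrays. The array numbered 3 was the highest in each group and the array numbered 1 the lowest, and the difference between old and young ovaries was 1.07 ± 1.16 (95% interval -1.57 to 3.72; adjusted p = 0.728, limma). Without the arrays numbered 3 that difference was 0.62. DCN (gene 709933), decorin, its neighbour in the annotation, read 6477, 6770.1 and 9764 in young, 7853, 11315 and 15798 in middle-aged, and 6435, 10082 and 14749 in old ovaries. Decorin ordered the monkeys within each group as lumican did, and the old against young difference was 0.39 ± 0.35. Of its 5 probe sets, 4 gave between 0.39 and 0.74, and the dimmest gave -1.02. FBLN1, fibulin 1, read 598, 766 and 929, then 878, 1117 and 1966, then 321, 1505 and 2271 in young, middle-aged and old ovaries. COL14A1, a stromal collagen that lies on fibrils, read 969, 608 and 1198, then 1031, 970.3 and 3717, then 327, 497 and 2610.4.

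Array 3 was the highest of its group in all 3 groups for COL14A1, DCN, FBLN1, LAMA3 and LUM, 5 of 60 genes (8.33%), where 8.4% of named genes did so. It was the lowest in all 3 groups for COL10A1, COL5A2, LAMA1, LAMA2 and LAMC3 (8.33%, against 10.3%). All 6 measured smooth muscle markers were highest on middle-aged 3 among the middle-aged and on old 3 among the old arrays, and of the 7 stromal fibroblast markers 5 were highest on middle-aged 3 and 4 on old 3. DPT, dermatopontin of fibroblasts, read 126, 304 and 263 in young, 206, 276 and 1795 in middle-aged, and 72.8, 488 and 2665 in old ovaries, while MFAP5, another fibroblast gene, was lowest of its group on middle-aged 3 (8732) and TCF21 on old 3 (16.3). MYH11, smooth muscle myosin, read 5437 in middle-aged 3 and 8692 in old 3 against 1129.9 to 3961 elsewhere. The summed intensity of the 7 stromal fibroblast markers ranged from 12592 to 13667 in young, 12374 to 14860 in middle-aged and 8062 to 16254 in old ovaries. MFAP5 alone read 10429 to 12141 in young ovaries, so the sum mostly follows MFAP5. Of the 7, 4 had a higher and 3 a lower mean in old than in young ovaries. THY1 was among the higher, with means of 527, 899 and 1551 in young, middle-aged and old ovaries and no overlap of arrays between groups. Whether each of these markers was expressed was not tested, since RMA values do not reach 0. The part of tissue makeup and of RNA quality in the values of LUM, DCN, FBLN1 and COL14A1 was not tested.

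**Figure D4:**
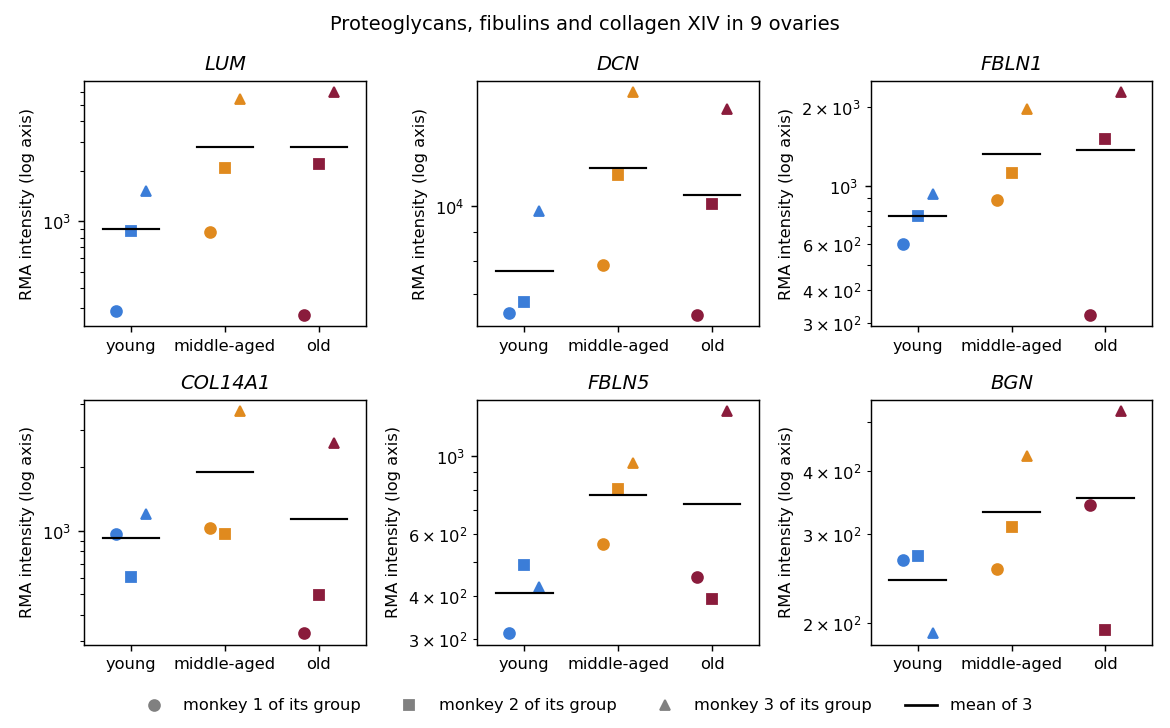
RMA intensity on log axes of LUM, DCN, FBLN1, COL14A1, FBLN5 and BGN in the 9 ovaries by age group, with a marker for each monkey and a line at the mean of 3. In LUM, DCN, FBLN1 and COL14A1 the triangle of monkey 3 is the highest point of every group, and the 3 groups overlap.

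FBLN5, needed for elastic fibre assembly, read 312, 489.8 and 422 in young, 563, 808 and 956 in middle-aged, and 451, 391 and 1348 in old ovaries, and all middle-aged arrays lay above the young ones (0.92 ± 0.45; adjusted p = 1.00, limma). FN1, fibronectin, read 2427, 1563 and 1367, then 2492, 2545 and 2862, then 2865, 1151 and 2623. Its middle-aged arrays also lay above the young arrays, the lowest only just, and old 2 was the lowest of the 9. FBN1, the main fibrillin, read 1378, 1250.2 and 1278 in young, 1313, 1876 and 1898 in middle-aged, and 1834, 1412 and 2251 in old ovaries. All old FBN1 arrays lay above the young arrays (0.47 ± 0.20; 95% interval 0.01 to 0.93; adjusted p = 0.363, limma), but the next brightest of its 4 probe sets gave -0.13. BGN, biglycan, read between 191 and 525 with a difference of 0.44 (95% interval -0.36 to 1.25) between old and young ovaries. ELN, elastin itself, read only 21.2 to 43.7, and FBLN7 read 66.1 to 99.2, with its middle-aged mean the lowest.

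Of the genes not above the median probe set, COL8A2, COL10A1, COL19A1, COL20A1, COL24A1, COL27A1, COL28A1 and LAMB4, none had an unadjusted p under 0.05 in any comparison. COL24A1 (4.11 to 6.65) and COL28A1 (6.68 to 8.54) had all group means below the first quartile of intensity. COL25A1, a membrane collagen, read 25.7 to 28.2 in young and middle-aged ovaries and 28.3 to 32.9 in old ovaries, a separation of groups with a log2 difference of only 0.19 ± 0.10 (adjusted p = 0.465, limma).

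The enzymes that make collagen were compared as a list of other pathway genes. Of 30 symbols for collagen synthesis and processing, 22 were measured and none was called in any comparison. In old against young ovaries, 1 of the 22 had an unadjusted p under 0.05 and was higher and 3 were lower, near the shares of all named genes (6.8% and 12%). In old against middle-aged ovaries 2 were lower, against 7.61% of named genes, and none was higher, against 3.67%. P4HA2, a prolyl hydroxylase of collagen chains, read 493, 1035 and 445 in young, 607, 251 and 339 in middle-aged, and 320.0, 263 and 203 in old ovaries, at -1.24 ± 0.40 between old and young ovaries (adjusted p = 0.246, limma). CRTAP, part of the prolyl 3-hydroxylation complex, was higher, at 0.44 ± 0.11 between old and young ovaries (adjusted p = 0.175, limma) and 0.27 between middle-aged and young ovaries. ADAMTS2, which removes the amino propeptide of procollagen I, read 147, 146 and 146 in middle-aged and 99.2, 48.5 and 81.5 in old ovaries, so that the old arrays lay below (-1.001 ± 0.28; adjusted p = 0.457, limma). TLL1, a procollagen C-proteinase, had the smallest p among those higher in old than in middle-aged ovaries, at 1.15 ± 0.63.

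Of 25 genes of matrix breakdown and its inhibitors, 22 were measured and none was called. MMP9, a gelatinase of leukocytes and remodelling tissue, read 43.2, 47.2 and 50.1 in young, 38.1, 604 and 145 in middle-aged, and 161, 364 and 255 in old ovaries. All old MMP9 arrays lay above the young ones, at 2.40 ± 0.83 (adjusted p = 0.276, limma), while middle-aged 1 was the lowest of the 9. TIMP1, an inhibitor of these enzymes, read 6828, 4744 and 3796 in young, 4161, 6792 and 4649 in middle-aged, and 24008, 6346 and 9421 in old ovaries, and its difference of 1.15 ± 0.46 between old and middle-aged ovaries (adjusted p = 0.611, limma) came with old 1 far above the rest. MMP2, the other gelatinase, read 949, 644 and 677 in young and 795, 1308 and 1421 in middle-aged ovaries (0.61 ± 0.27; adjusted p = 1.00, limma), and -0.38 between old and middle-aged ovaries. MMP1 (-0.90 in old against young) and MMP10 (-0.36 in middle-aged against young) were the lower genes with the smallest p and read under 10 on most arrays.

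Of 23 matrix receptors, 19 were measured and none was called. DDR2, a collagen receptor of fibroblasts, differed by 0.54 ± 0.21 between old and young ovaries (adjusted p = 0.323, limma), and SDC4, a heparan sulphate receptor, by -0.45 ± 0.19 (adjusted p = 0.361, limma). ITGA6, a laminin receptor chain, differed between old and middle-aged ovaries by 0.79 ± 0.46, with old 1 at 1568 against 319 to 528 on the other 8 arrays, and ITGB5 by -0.73 ± 0.50. SDC2 differed between middle-aged and young ovaries by -1.63 ± 0.64 (adjusted p = 1.00, limma), and ITGA11, the collagen-binding integrin chain of fibroblasts, by 0.36 ± 0.19.

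Across roles, the array medians of each group of genes show where the 60 genes parted. The basement membrane collagens stood 1.10 log2 units above their mean over arrays in middle-aged 1, 1.04 in young 1, and -1.22 in old 1. These are medians of 4 genes that did not move together on every array. In old 2 the median was -0.45, but COL4A5 (809) and COL4A6 (546) had their highest values of the 9 arrays there. In old 1 both of these genes had their lowest values of the 9 arrays, at 439 and 126. The proteoglycans with fibronectin stood highest in old 3 (0.74) and middle-aged 3 (0.64). The laminins stood highest in middle-aged 2 (0.52), and the lysyl oxidases in middle-aged 2 (0.27), with all 3 old arrays below 0.

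**Figure D5:**
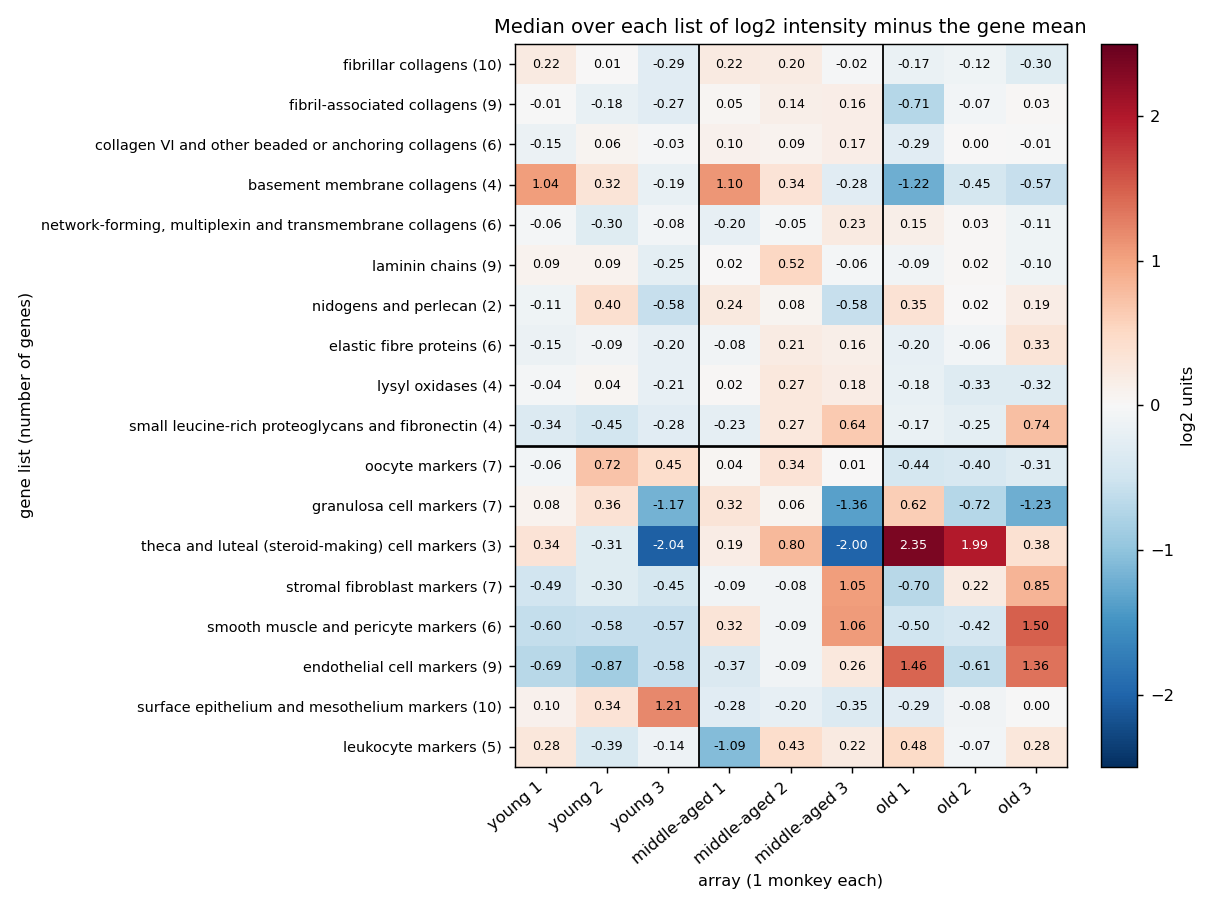
Median over the genes of each list of the log2 intensity minus that gene's mean over the 9 arrays (columns, 1 monkey each), for the 10 matrix roles above the thick line and the 8 cell type marker lists below it, with red above and blue below the mean. The median of the 4 basement membrane collagens is above 0 in young 1 and 2 and middle-aged 1 and 2 and below 0 in all 3 old arrays. It joins COL4A3 and COL4A4, lower in old than in young ovaries, with COL4A5, whose old mean was not lower, and COL4A6, whose probe sets disagreed in sign. The proteoglycans with fibronectin share their high values in middle-aged 3 and old 3 with the stromal and smooth muscle markers.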

How the data were processed

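Ovarian RNA of 9 monkeys was measured on one-colour arrays. Per the labels, the authors labelled it with biotin and made the deposited intensity values with RMA (version not stated), 1 linear value for each probe set. The methods of the study describe LuxScan, LOWESS and dye reversal, which are steps for 2-colour slides, and the labels were followed here. Genome build, detection calls and scan dates are not given in the sources used here. Of 52865 probe sets, 99 controls were left out and the other 52766 were taken to log2 and fitted with limma 3.58.1 in R 4.3.3, with 1 mean for each age group, all 9 arrays and Benjamini-Hochberg adjustment over all probe sets. Symbols came from the array annotation (24956 probe sets with 1 symbol, 361 with several, 27449 with none), and 57 of the 60 genes matched RefSeq by gene number. The members and gene lists were chosen with earlier results of these data known. Full statistics were given for members called, for the largest differences of each role, for a set of core genes fixed by symbol (COL4A1 and COL4A2 had no probe set with their symbol) and for members whose groups did not overlap. From each pathway list the gene with the smallest p in each direction was named. SEs and 95% intervals give the precision of a difference between group means, with the monkey as the unit. They rest on 1 variance for each probe set, pooled over the 3 groups and drawn by limma toward that of the other probe sets. A check used simulated data for old versus young with all 52766 probe sets. Changes were planted only in probe sets above the median, and noise was drawn independently for each array. There limma recovered 40% of 2-fold, 70% of 4-fold, 88% of 8-fold and 98% of 32-fold changes and called 9 unchanged probe sets. Recovery for dim genes, or with variation shared between arrays, was not simulated. Alternatives were centring or quantile normalization, brighter probe sets, array weights, averaged probe sets, SAM over 20 labelings, a replicate block and leaving out arrays.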

Additional observations from a re-analysis of the deposited data

How the results depend on the processing

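No matrix gene lost or reversed a call, since none was called, and of 2457 values of named genes under 21 alternative settings 2454 stayed on the same side of the threshold. The 3 others were calls gained in old ovaries: COL4A4 by SAM (1 matrix gene in old versus young, q = 0.0469), and LAMA1 with a replicate block (1 in old versus young, adjusted p = 0.0142, and 1 in old versus middle-aged, adjusted p = 0.0352). Over all probe sets SAM called 1 higher and 359 lower in old versus young. The replicate numbers do not pair the samples: deviations of arrays with the same number correlated at 0.27, 0.10 and 0.13 for number 1, 0.06, 0.04 and -0.02 for number 2, and 0.41, 0.25 and 0.35 for number 3, and the arrays numbered 3 but not those numbered 2 correlated best with their own number. The median log2 difference of the 60 genes between old and middle-aged ovaries, -0.24, was -0.12 with array weights, -0.15 with probe sets averaged, and -0.27 to -0.081 when 1 array was left out, with the weakest values without old 1 (-0.081) and without middle-aged 3 (-0.13). Between old and young ovaries the median, 0.05, was -0.061 without the 3 arrays numbered 3 and -0.03 to 0.09 without 1 array, so its sign was not stable. Between middle-aged and young ovaries, 0.14, it was 0.07 to 0.22 without 1 array. Of the 37 genes with several probe sets, 14 had probe sets of opposite sign in old versus middle-aged, 14 in middle-aged versus young and 16 in old versus young.

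Counts at an unadjusted p under 0.05, an alternative chosen after seeing the data, depended more on single arrays. The 11 genes with the lower level in old against middle-aged ovaries (7.61% of named genes) became 4 without middle-aged 2 (COL1A1, COL1A2, COL4A4 and LOX, 5.36%) and 15 without middle-aged 3 (7.27%). The 8 genes higher in middle-aged than in young ovaries (1.43%) became 3 without young 3 (COL1A1, COL6A1 and LOXL1, 1.61%), 4 without middle-aged 2 (1.02%), 4 without middle-aged 3 (1.00%), 5 without young 2 (1.23%) and 4 without the 3 arrays numbered 3 (1.27%). The 5 genes lower in old than in young ovaries (12%) became 3 without young 1 (11.3%), 8 without young 3 (10.9%), 8 without old 1 (10.8%) and 11 without the arrays numbered 3 (9.96%), and the 2 higher ones became 0 to 5. Without detection calls, no bound on dim genes could be set, and 3 arrays a group limit what can be told apart.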
